A study of Arabidopsis thaliana with 9 samples.

Results

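Seedlings of the Arabidopsis thaliana mutant csu5-1 were set directly against seedlings of the mutant csu5-3, with both alleles in the same fit. The contrast rests on all 3 csu5-1 and all 3 csu5-3 libraries of a series of 9, the other 3 being wild-type Col. It covers every gene with at least 1 FPKM (fragments per kilobase of exon, scaled to the counted reads) in at least 3 of those 6 mutant libraries, which was 19042 of the 32678 genes listed. Whole seedlings of the Col-0 ecotype were grown for 5 days under constant white light of 14.59 μmol per square metre and second, and their polyadenylated RNA was sequenced. The mutants are labelled only by their allele names, Col is labelled wildtype, and all groups shared ecotype, age and light. CSU5 stands for COP1 SUPPRESSOR 5, and the series concerns a missense mutation in it that reverses its action in light-driven development. Which allele is the missense one, where the gene lies and whether either line carries another mutation are not given in the sources used here. Nothing in the labels says that the 3 libraries of a genotype came from separate cultures, so p-values measure the spread between these libraries only.

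Light turns a seedling from elongation in the soil to leaf and chloroplast development. COP1, a ubiquitin ligase, holds this programme back by marking activators such as HY5 for breakdown, whereas PIF transcription factors promote elongation and auxin synthesis in shade and darkness. A suppressor of cop1 is a mutation that reverses part of the cop1 phenotype, and different alleles of one suppressor can differ in how much of the gene's function they leave or alter. The question of this contrast was how the RNA of the alleles differed.

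The alleles differed widely. In csu5-1, relative to csu5-3, 1565 genes rose and 1269 fell, together 14.9% of the genes tested (8.22% rose and 6.66% fell). Calls needed limma's p, adjusted after Benjamini and Hochberg, to be below 0.01 and the fold to exceed 1.5, and all folds are given as log2 of csu5-1 over csu5-3 on log2(FPKM + 0.5). At limma's unadjusted p below 0.05 and any fold, 10056 of the 19042 genes differed between the alleles. The counts of list members at that p below are to be read beside this. Counts of called list members are to be read beside the 8.22% and 6.66% above. By more than 2-fold, 646 genes rose and 352 fell. By more than 4-fold, 131 rose and 33 fell, and by more than 8-fold, 30 rose and 6 fell. The same fit, in which these comparisons share libraries, called 16.3% of the genes between csu5-1 and Col (1602 higher, or 8.41%, and 1508 lower, or 7.92%) and 0.242% between csu5-3 and Col (23 in each direction). The median gene stood at −0.01 and the quartiles at −0.24 and 0.22. Without scaling of the libraries the median was −0.08 and 1303 genes rose while 1680 fell, so the balance between rises and falls depends on the scaling.

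**Figure D1:**
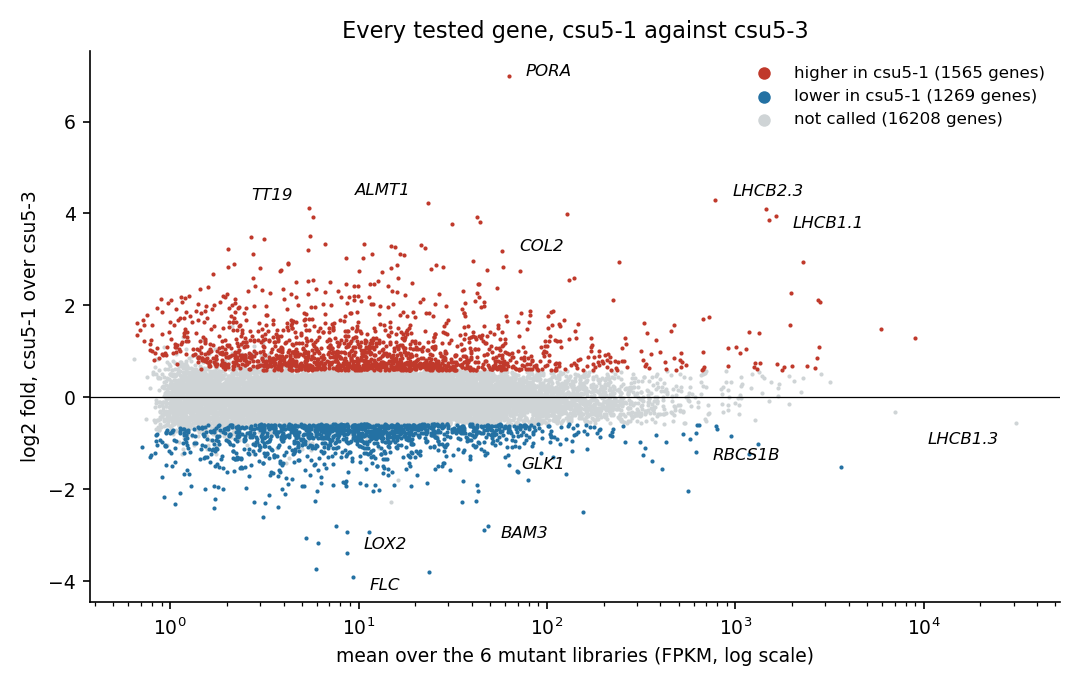
Mean level over the 6 mutant libraries (FPKM, log axis) against the log2 fold of csu5-1 over csu5-3 for each of the 19042 tested genes, 1 point per gene, with called genes in colour. PORA stands apart at 6.99, LHCB2.3 (4.29) and LHCB1.1 (3.96) combine a high level with a large fold, and FLC marks the lower edge at −3.92.

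The libraries of the alleles fell apart cleanly. Over the 6 mutant libraries the first principal component held 76.8% of the variance, with csu5-1 at 34.3 to 36.6 and csu5-3 at −36.6 to −35.3. Over all 9 libraries, csu5-1 stood at 45.3 to 48.6 and the 6 csu5-3 and Col libraries at −25.7 to −22 on that component. The estimated depth was 37.1 to 39.4 M counted reads in csu5-1, 38.7 to 43.0 M in csu5-3 and 39.0 to 41.7 M in Col, read from the steps between low values. Of the genes tested, 140 reached the filter through csu5-1 alone (114 rose) and 149 through csu5-3 alone (82 fell), and such genes were bound to differ. At the edge of the filter, AT1G62240 and AT1G63950 passed with exactly 1.0 FPKM in the library that decided it, and AT1G28080 and AT1G50910 missed it with 0.99. The flower and pollen markers AP1, AP3, AG and VGD1 were all under 1 FPKM in the 6 mutant libraries, and the 3 mesophyll markers summed to 9130 to 9450 FPKM in csu5-1 and 8540 to 8980 in csu5-3. Of those 3, LHCB2.1 is itself an antenna gene and rose, while RBCS1A and CA1 were lower in csu5-1 without being called. The phloem markers SUC2 and SEOR1 summed to 94.8 to 103 FPKM in csu5-1 and 149 to 166 in csu5-3, of which SUC2 fell (−0.89 ± 0.07) and SEOR1 was not called (0.14 ± 0.09), and 3 xylem markers, none of them called, to 49.6 to 54.6 FPKM in csu5-1 and 56.0 to 69.1 in csu5-3. In bulk RNA from whole seedlings, a change in the number of cells of a type and a change in RNA per cell cannot be told apart.

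The locus of CSU5 is not in the labels. Knowledge from outside them points to WRKY32 (AT4G30935), a transcription factor of WRKY group I, and this identity was not checked here. WRKY32 was at 8.17, 8.22 and 7.96 FPKM in csu5-1, 4.58, 3.65 and 3.78 in csu5-3, and 8.48, 10.1 and 11.1 in Col. Every csu5-3 library lay below every csu5-1 and Col library, and the csu5-1 libraries lay below the Col range. Such a lack of overlap between the 3 csu5-1 and the 3 csu5-3 libraries was common, in 56.5% of all tested genes, and is given below as a description only. The allele contrast called it higher in csu5-1 (1.02 ± 0.12 SE, adjusted p = 1.6e-05), and the call was lost in a test against a fold of 1.5 itself. Of 14 listed WRKY group I genes 11 were tested, with a median of 0.04. Of these, 2 rose (8.22% of all tested genes did) and 0 fell (0 at limma's unadjusted p below 0.05). WRKY44 was the other that rose (0.82 ± 0.18, adjusted p = 0.0021), a call lost in that test and without csu5-1 replicate 2 or csu5-3 replicate 2. COP1 (AT2G32950) was not called, at 20.7 ± 0.442 FPKM in csu5-1 and 20.9 ± 1.39 in csu5-3 (SD, n = 3 each), with a log2 fold of 0.07 ± 0.06 (adjusted p = 0.41). HY5 (AT5G11260), the bZIP activator that COP1 targets, averaged 14.1 ± 0.232 FPKM in csu5-1 and 18.5 ± 1.26 in csu5-3 and was not called (−0.31 ± 0.09, adjusted p = 0.014).

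Antenna genes had the largest share of rises among the 30 lists. They encode the LHC proteins that hold chlorophyll around the photosystems. Of 21 listed and tested, 17 rose in csu5-1 and 0 fell, beside 8.22% and 6.66% of all tested genes. At limma's unadjusted p below 0.05, 1 was lower, and the median was 1.43. LHCB2.3 (AT3G27690) was at 1485, 1459 and 1521 FPKM in csu5-1 and at 79.2, 81.6 and 79.7 in csu5-3. LHCB2.2 (AT2G05070) was at 2809, 2595 and 2805 FPKM in csu5-1 and at 169, 175 and 160 in csu5-3. LHCB2.1 (AT2G05100) was at 2876, 2730 and 2835 FPKM in csu5-1 and at 209, 201 and 209 in csu5-3. All 3 copies of this subunit of the mobile trimer were thus far apart between the alleles, with log2 folds of 4.29 ± 0.04, 4.1 ± 0.06 and 3.85 ± 0.05. LHCB2.3 overlaps another annotated gene, and near-identical copies can share reads, so the summed LHCB2 level is the safer figure: 7038 ± 220 FPKM in csu5-1 and 454 ± 4.41 in csu5-3. Between csu5-3 and Col (618 ± 15.3 FPKM) the LHCB2 genes were not called, although LHCB2.1 had an adjusted p of 0.00065 at a log2 fold of −0.51.

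The LHCB1 copies behaved otherwise. LHCB1.1 (AT1G29920), the least abundant copy in csu5-3, rose, with 3085, 2899 and 3196 FPKM in csu5-1 and 225, 165 and 243 in csu5-3 (3.96 ± 0.12, adjusted p = 2.1e-10). LHCB1.2, LHCB1.5 and LHCB1.4 rose with 2.08 ± 0.12, 1.50 ± 0.11 and 1.29 ± 0.09. LHCB1.3 (AT1G29930), the most abundant of all tested genes, averaged 24050 ± 206 FPKM in csu5-1 and 37460 ± 2670 in csu5-3. Its log2 fold of −0.56 ± 0.13 (adjusted p = 0.0038) missed the fold threshold, and without scaling or without csu5-3 replicate 2 it was called lower. Summed over the 5 copies, LHCB1 stood at 52760 ± 1190 FPKM in csu5-1 and 47467 ± 2170 in csu5-3. As listed, the alleles differed less in the total than in its make-up: LHCB1.3 supplied 45.6% ± 0.961 of it in csu5-1 and 78.8% ± 2.19 in csu5-3, against 78.4% ± 1.72 in Col. As for LHCB2, similar copies can share reads, so these shares are less sure than the sum.

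**Figure D2:**
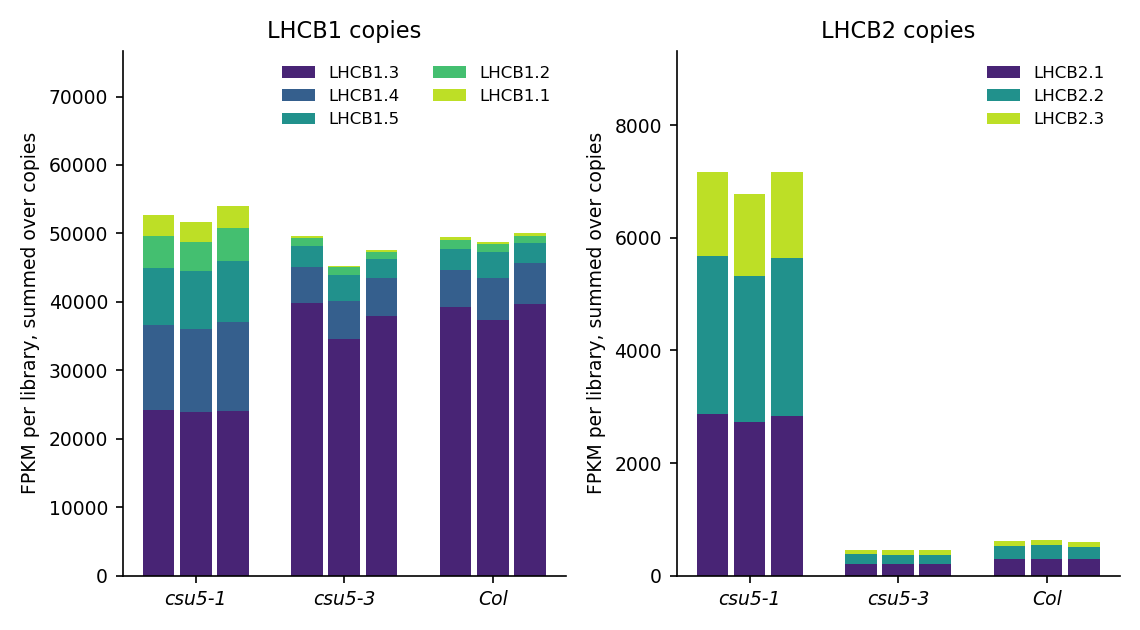
FPKM of the LHCB1 copies (left) and LHCB2 copies (right), stacked for each library, with 3 bars per genotype. The LHCB1 totals lie close together while LHCB1.3 fills a smaller part of the csu5-1 bars, and the LHCB2 totals are 7038 FPKM in csu5-1, 454 in csu5-3 and 618 in Col on average.

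Outside those families, LHCB3 (AT5G54270), another trimer subunit, was at 3987, 3913 and 4100 FPKM in csu5-1 and 581, 612 and 459 in csu5-3 (2.95 ± 0.11). LHCA4 and LHCA1, which form a dimer at photosystem I, rose with 2.12 ± 0.09 and 2.27 ± 0.08. LHCB6, LHCA3, LHCB4.2 and LHCB5 followed with 1.1 to 1.57. The weakest rises, LHCA2 (0.63) and LHCB4.1 (0.68), were lost under quantile normalization, where they stood at −0.13 and −0.08. LHCA2 was also lost without scaling and LHCB5 under quantile normalization. LHCA2, LHCA6 (0.81) and LHCB4.1 were lost in the test against a fold of 1.5 itself. LHCA4, LHCB1.3, LHCB1.5, LHCB3, LHCB4.2 and LHCB6 overlap another annotated gene. The antenna genes together made up 12.5% of the FPKM of csu5-1 libraries and 8.47% of that of csu5-3 libraries. Of the mesophyll markers, LHCB2.1 is itself an antenna gene, while RBCS1A and CA1 stood at −0.33 and −0.33 and were not called.

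Photosystem cores, electron transport and carbon fixation moved less. Of 35 listed and tested, 10 rose and 1 fell, beside 8.22% and 6.66% of all tested genes, and 24 were not called. The median was 0.46. PSAH2 (AT1G52230), a photosystem I subunit at the docking side for the mobile antenna, was at 1349, 1304 and 1401 FPKM in csu5-1 and 668, 666 and 671 in csu5-3 (1.09 ± 0.05). PSBW (AT2G30570), a small photosystem II subunit, was at 1524, 1493 and 1489 FPKM in csu5-1 and 795, 771 and 750 in csu5-3 (1.04 ± 0.05). RBCS1B (AT5G38430), a Rubisco small subunit, was at 359, 372 and 363 FPKM in csu5-1 and 874, 852 and 894 in csu5-3 (−1.18 ± 0.05) and was the 1 gene that fell. The groups did not overlap for any of the 3 genes, as for 56.5% of all tested genes. The Rubisco copies did not move together, since RBCS1A stood at −0.33 and RBCS2B and RBCS3B at 0.41 and 0.42, none of them called. Quantile normalization left 6 rises and 3 falls in this list, and the test against a fold of 1.5 itself left 5 rises. PSAH2 overlaps another annotated gene. Of 86 chloroplast-encoded genes tested, 0 rose and 13 fell, with a median of −0.40. Their summed level was 389, 470 and 463 FPKM in csu5-1 and 557, 674 and 807 in csu5-3, at most 0.117% of a library in these poly(A)-selected samples.

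In chlorophyll synthesis and breakdown, 8 of 29 genes rose (27.6%, against 8.22% of all tested) and 2 fell (6.9%, against 6.66%). The other 19 were not called, and the median was 0.34. The share of falls was near that of all tested genes. PORA (AT5G54190), a protochlorophyllide oxidoreductase that is classically abundant in dark-grown seedlings, was at 137, 107 and 130 FPKM in csu5-1 and at 0.58, 0.27 and 0.79 in csu5-3. No gene rose more in this contrast (6.99 ± 0.19, adjusted p = 1.3e-10), and PORA reached the filter through csu5-1 alone. In Col it was at 1.12, 1.88 and 1.74 FPKM, above every csu5-3 library, a difference that was not called (csu5-3 over Col −1.0 ± 0.19, adjusted p = 0.015). HEMA1, which opens the pathway, was at 270, 278 and 271 FPKM in csu5-1 and 153, 139 and 158 in csu5-3 (0.95 ± 0.06). CAO (AT1G44446), which makes chlorophyll b, was at 188, 182 and 186 FPKM in csu5-1 and 59.4, 58.9 and 63.1 in csu5-3 (1.69 ± 0.06). The csu5-1 libraries lay above the csu5-3 libraries for all 3 genes. CHLH, a subunit of magnesium chelatase, rose with 1.01 ± 0.06. PORB, another protochlorophyllide oxidoreductase, had 0.59 ± 0.06. It lost its call without scaling, under quantile normalization, with a pseudocount of 1, without a filter and without any 1 of 3 mutant libraries. PORC was not called (0.34 ± 0.05). GSA1, an early enzyme, and NYC1, which starts chlorophyll b breakdown, fell with −0.73 ± 0.05 and −0.65 ± 0.07. Without scaling 5 members of this list rose, and in the test against a fold of 1.5 itself 4 rose and 0 fell. CAO and PORB overlap another annotated gene.

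Carotenoid genes gave 3 rises and 1 fall among 16, beside 8.22% and 6.66% of all tested genes, with a median of 0.01. BCH2, a beta-carotene hydroxylase, was at 44.5, 34.6 and 43.0 FPKM in csu5-1 and 5.08, 2.94 and 4.33 in csu5-3 (3.25 ± 0.16). Its sister copy BCH1 went the other way without being called (−0.52 ± 0.07). The opposing enzymes of the xanthophyll cycle split as well: ZEP, which makes violaxanthin, rose (0.80 ± 0.05) and VDE (NPQ1 in the annotation), which removes it, fell (−1.25 ± 0.06). PSY, the entry enzyme, stood at 0.12 ± 0.07 and was not called. The BCH2 groups were far apart, and those of BCH1 (41.0 to 45.0 FPKM in csu5-1, 64.5 to 66.8 in csu5-3) did not overlap either; without scaling BCH1 was called and 3 members fell. ZEP and DXS (0.59) were lost in the test against a fold of 1.5 itself, and DXS also without csu5-1 replicate 1 or csu5-3 replicate 2. Without csu5-3 replicate 2, 2 members fell. BCH2 and VDE overlap another annotated gene.

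Enzymes of flavonoid and anthocyanin synthesis rose in 10 of 17 tested cases (19 listed) and fell in 0 (2 were lower at limma's unadjusted p below 0.05), with a median of 1.05, but 6 of the 17 reached the filter through csu5-1 alone. CHS (AT5G13930), the entry enzyme, was at 37.3, 31.4 and 29.6 FPKM in csu5-1, 5.38, 5.41 and 6.55 in csu5-3, and 2.82, 3.71 and 3.07 in Col. The genotypes thus stood in 3 separate ranges (csu5-1 over csu5-3 2.48 ± 0.12; csu5-3 over Col 0.76 ± 0.12, adjusted p = 0.0073). The call of csu5-3 against Col was lost in 9 of 18 settings. DFR (AT5G42800), a late enzyme on the anthocyanin branch, was at 5.99, 6.29 and 3.69 FPKM in csu5-1 and at 0, 0.07 and 0 in csu5-3. LDOX, the next enzyme, was at 6.07, 5.77 and 4.08 FPKM in csu5-1 and 0.04, 0.20 and 0.37 in csu5-3. TT19 (AT5G17220), a glutathione transferase needed to store anthocyanin, was at 10.2, 12.1 and 9.88 FPKM in csu5-1 and 0.12, 0.19 and 0.20 in csu5-3 (4.12 ± 0.17). DFR, LDOX and TT19 reached the filter through csu5-1 alone, so that they are low in csu5-3 is no finding. F3H was listed at 0 in all 9 libraries. At a minimum of 5 FPKM, 4 enzymes rose. The shared entry enzymes PAL1, PAL2 and C4H stood between −0.27 and 0.04 and were not called. Among the regulators, 2 of 7 tested (11 listed, 2 of the 7 tested through csu5-1 alone) rose and 1 fell, with a median of 0.33. PAP1, the MYB activator of anthocyanin genes, was at 3.46, 3.97 and 2.4 FPKM in csu5-1 and 0.15, 0.05 and 0.11 in csu5-3. PAP1 reached the filter through csu5-1 alone, so that it is low in csu5-3 is no finding. The repressor MYBL2 fell (−0.82 ± 0.08). MYB111 rose (1.0 ± 0.23) but was not called without any 1 of 4 mutant libraries, and it and MYBL2 were lost in the test against a fold of 1.5 itself. CHS and TT19 overlap another annotated gene.

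Receptors and regulators of light signalling rose in 17 of 45 tested cases (47 listed) and fell in 1, beside 8.22% and 6.66% of all tested genes. Their median was 0.41. The B-box genes led them. BBX28 (AT4G27310) was at 27.2, 28.4 and 29.7 FPKM in csu5-1 and 4.6, 3.73 and 2.77 in csu5-3 (2.88 ± 0.14). BBX24, a repressor of HY5 action, was at 114, 119 and 128 FPKM in csu5-1 and 39.7, 40.7 and 41.4 in csu5-3 (1.64 ± 0.06). BBX18, BBX19, BBX25, BBX30, BBX31 and BBX32 rose too, with 1.31 to 2.47, whereas BBX20, BBX21, BBX22 and BBX29 were not called (−0.45 to 0.48). Among the PIF genes, PIF5 (AT3G59060) was at 61.9, 58.4 and 58.6 FPKM in csu5-1 and 12, 13.5 and 11.4 in csu5-3 (2.31 ± 0.08). PIF4 (AT2G43010) was at 52.4, 60.7 and 55.0 FPKM in csu5-1 and 14.8, 20.8 and 14.0 in csu5-3 (1.83 ± 0.12). PIF1 rose by less (0.71 ± 0.07), and PIF3 and PIF7 were not called (0.56 and 0.16), although PIF3 was called without csu5-1 replicate 3 or csu5-3 replicate 2. HYH, the homologue of HY5, rose (1.36 ± 0.11), with means of 49.3 FPKM in csu5-1, 20.1 in csu5-3 and 30.8 in Col. PHYA, the phytochrome of far-red light, rose with 0.98 ± 0.06, and the cryptochrome CRY1 was not called at 0.52 ± 0.05. GLK1 (AT2G20570), an activator of photosynthesis genes, was the 1 that fell, at 31.3, 36.7 and 31.3 FPKM in csu5-1 and 85.6, 89.6 and 83.9 in csu5-3 (−1.29 ± 0.06), while its partner GLK2 stood at 0.34 ± 0.07. PIF1, BBX32, RUP1, RUP2, FHL and PIL1 lost their call in the test against a fold of 1.5 itself, PIL1 also without any 1 of 4 mutant libraries, and BBX24, BBX25, BBX32 and PIF1 overlap another gene.

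Clock genes moved both ways. Of 32 tested (33 listed), 14 rose and 7 fell, beside 8.22% and 6.66% of all tested genes, and 11 were not called. The median was 0.28. The dawn genes LHY (AT1G01060) and CCA1 (AT2G46830) were at 101.3 to 102.3 and 79.9 to 85.3 FPKM in csu5-1, against 12.4 to 17.1 and 10.1 to 14.3 in csu5-3 (2.84 ± 0.10 and 2.76 ± 0.13). LNK2 (AT3G54500), a coactivator of morning-phased factors, was at 126, 118 and 128 FPKM in csu5-1 and 18.4, 17.7 and 21.0 in csu5-3 (2.75 ± 0.07). Its relative LNK1 (AT5G64170) and its partner RVE8 rose with 1.99 ± 0.11 and 1.99 ± 0.13. COL2, a relative of CONSTANS, was at 102, 102 and 108 FPKM in csu5-1 and 10.6, 11.5 and 13.0 in csu5-3 (3.18 ± 0.10). PRR7 rose (1.1 ± 0.09), whereas PRR5 and PRR3 fell (−0.61 ± 0.12 and −0.74 ± 0.10). TOC1 (AT5G61380), an evening gene, was at 24.0, 25.3 and 23.9 FPKM in csu5-1 and 47.8, 53.4 and 50.3 in csu5-3 (−0.96 ± 0.06). ELF4 and BOA, which belong to the evening loop, fell with −1.04 ± 0.11 and −1.03 ± 0.10, and the RNA-binding output GRP7 with −1.03 ± 0.11. GI, ELF3 and ZTL were not called (−0.15 to 0.02). The sources used here do not state the hour of collection, so a difference in phase and a difference in level cannot be told apart. LNK1, LNK2, BOA and COL2 overlap another gene. In the test against a fold of 1.5 itself 9 rises and 1 fall, that of TOC1, were left, and PRR5 was also lost with a pseudocount of 1 and without csu5-1 replicate 2 or csu5-3 replicate 2.

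Of 12 flowering genes tested (15 listed), 3 rose and 1 fell (8.22% and 6.66% of all tested genes did), with a median of 0.20. FLC (AT5G10140), a repressor of flowering, was at 0.27, 0.97 and 0.91 FPKM in csu5-1, 18.1, 18.3 and 17.2 in csu5-3, and 21.7, 23.8 and 23.5 in Col. No gene under the naming rule fell more (−3.92 ± 0.19, adjusted p = 1.1e-08), and csu5-3 was not called against Col (−0.36 ± 0.19, adjusted p = 0.30). FLC was tested through csu5-3 alone and overlaps another annotated gene, and without strand information the reads of both cannot be told apart. Its clade members MAF1 to MAF4 stood between 0.09 and 0.36 and were not called, and MAF5, SVP and SMZ rose with 1.11 ± 0.20, 0.69 ± 0.09 and 0.63 ± 0.07. None of these 3 passed the test against a fold of 1.5 itself, and SMZ was lost without scaling.

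**Figure D3:**
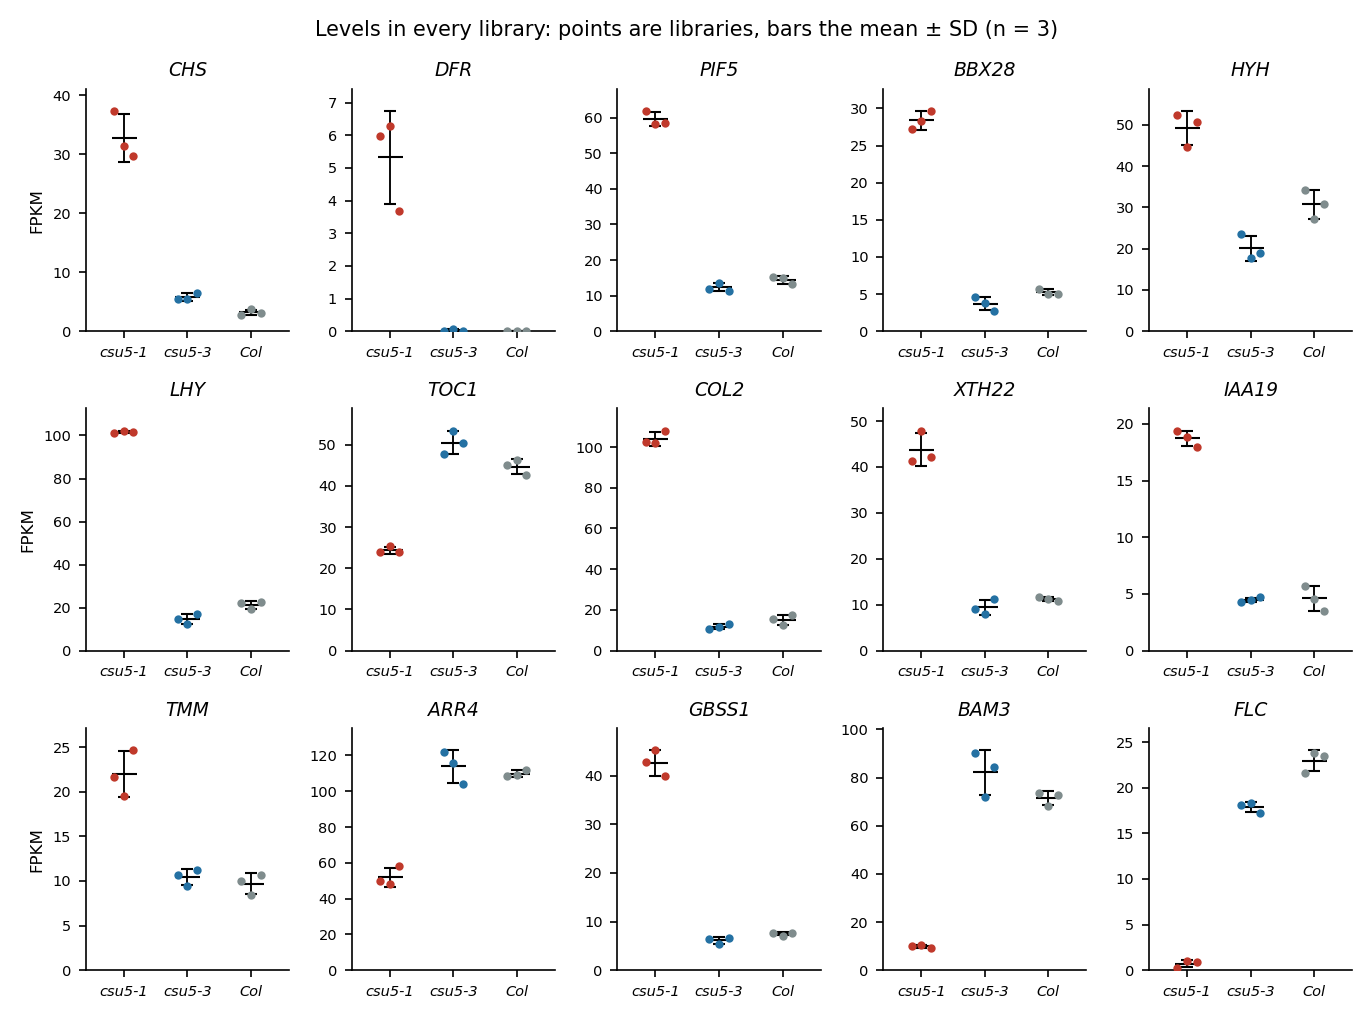
FPKM of 15 genes in every library, each panel from 0, with csu5-1, csu5-3 and Col from left to right; bars are the mean ± SD of 3 libraries. The csu5-1 points do not overlap the csu5-3 points in these panels, as in 56.5% of all tested genes, and FLC shows 0.27 to 0.97 FPKM in csu5-1 against 17.2 to 18.3 in csu5-3.

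Cell elongation genes rose in 25 of 35 tested cases (36 listed) and fell in 1, beside 8.22% and 6.66% of all tested genes. The median was 0.91. Alpha-expansins loosen the cell wall. EXPA8 (AT2G40610) was at 145, 167 and 152 FPKM in csu5-1 and 48.3, 49.9 and 45.5 in csu5-3 (1.76 ± 0.07). EXPA6 was at 170, 170 and 176 FPKM in csu5-1 and 62.9, 62.4 and 60.6 in csu5-3 (1.55 ± 0.07). EXPA1 to EXPA5 and EXPA11 rose with 0.69 to 1.27, and EXPA10 and EXPA15 did not pass (−0.35 and −0.03). XTH enzymes cut and rejoin xyloglucan in the wall. Among the XTH genes on the list XTH22 (AT5G57560) rose most, at 41.2, 47.9 and 42.2 FPKM in csu5-1 against 9.03, 8.03 and 11.2 in csu5-3 (2.25 ± 0.10). XTH25, which is not on the list, is given below. XTH4, XTH15, XTH17, XTH19, XTH23 and XTH24 rose with 0.75 to 1.22, while XTH5, XTH16, XTH18, XTH20, XTH30 and XTH33 were not called. PRE6 (AT1G26945), an atypical bHLH protein that promotes growth, was at 46.1, 47.7 and 54.8 FPKM in csu5-1 and 6.97, 7.21 and 6.60 in csu5-3 (2.83 ± 0.10). PRE3 was the 1 member that fell (−0.63 ± 0.13), a call lost without csu5-1 replicate 2 or csu5-1 replicate 3. The shade-linked HD-Zip II genes HB4, HAT2, HAT1, HB2 and HAT3 rose with 0.61 to 1.39. In the test against a fold of 1.5 itself, EXPA1 to EXPA5, EXPB1, EXPB3, XTH15, XTH23, PRE3, PRE5, HAT1, HAT3 and HB2 were not called, which left 12 rises. The summed epidermis markers ATML1, PDF1 and CER5 moved with this group, at 607 to 673 FPKM in csu5-1 and 336 to 347 in csu5-3, of which PDF1 rose and the other 2 were not called, and their part in the result was not tested.

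Auxin genes followed in 23 of 50 tested cases (53 listed), with 0 falls (3 were lower at limma's unadjusted p below 0.05) and a median of 0.55. YUC8 (AT4G28720), an enzyme of auxin synthesis, was at 9.13, 9.79 and 8.36 FPKM in csu5-1 and 1.73, 2.56 and 2.05 in csu5-3 (1.96 ± 0.14). IAA19 (AT3G15540), an auxin-induced repressor of the response, was at 19.3, 18.9 and 18.0 FPKM in csu5-1 and 4.33, 4.46 and 4.69 in csu5-3 (2.02 ± 0.13). SAUR19 (AT5G18010), of a family of small growth-promoting genes, was at 7.0, 9.08 and 8.40 FPKM in csu5-1 and 1.37, 0.77 and 1.2 in csu5-3 (2.50 ± 0.16). Its neighbours SAUR20 to SAUR24 rose with 1.69 to 2.28, but these copies are near-identical and can share reads. Among the carriers, LAX2, ABCB19 and LAX3 rose with 0.60 to 1.04. PIN3, PIN4, PIN7 and AUX1 were not called (0.25 to 0.44), nor were the receptors TIR1 and AFB2 (−0.21 and 0.05). In csu5-1 against Col, which shares the csu5-1 libraries with this contrast, 13 of these 50 genes rose and 0 fell, beside 8.41% and 7.92% of all tested genes. In the test against a fold of 1.5 itself 10 rose between the alleles, and LAX3 was also lost without scaling. IAA2 was at 73.8, 72.4 and 74.8 FPKM in csu5-1, 45.9, 40.9 and 37.2 in csu5-3, and 76.8, 65.3 and 65.6 in Col. The alleles differed (0.91 ± 0.08), csu5-3 was below Col (−0.74 ± 0.08, adjusted p = 0.0012) and csu5-1 overlapped Col.

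Other hormones changed in part. In gibberellin metabolism and signalling 4 of 14 tested (18 listed) rose and 0 fell (0 were lower at limma's unadjusted p below 0.05), with a median of 0.13. GA3OX1, which makes active gibberellin, was at 13.8, 16.7 and 16.8 FPKM in csu5-1 and 2.81, 2.90 and 3.91 in csu5-3 (2.21 ± 0.16), and GA20OX1, one step before it, rose as well (1.56 ± 0.22). GA2OX6, which breaks the hormone down, rose with 1.44 ± 0.10, and the DELLA repressor RGL1 with 0.86 ± 0.09. For brassinosteroids, 2 of 14 rose and 0 fell (2 were lower at limma's unadjusted p below 0.05), beside 8.22% and 6.66% of all tested genes. Those that rose were the synthesis gene BR6OX1 and the inactivating BAS1. Neither BR6OX1 (0.72 ± 0.12) nor BAS1 (0.97 ± 0.09) passed the test against a fold of 1.5 itself, and RGL1 did not pass it either. Cytokinin genes pointed down, with 0 rises (1 was higher at limma's unadjusted p below 0.05) and 4 falls among 11 tested (12 listed) and a median of −0.15. ARR4 (AT1G10470), a type-A response regulator that cytokinin induces, was at 49.6, 47.9 and 58.1 FPKM in csu5-1 and 122, 116 and 104 in csu5-3 (−1.05 ± 0.08). ARR6, ARR7 and ARR3 fell with −0.85 ± 0.08, −0.87 ± 0.12 and −0.64 ± 0.17, of which only ARR4 was kept in the test against a fold of 1.5 itself, and ARR3 was lost without any 1 of 5 mutant libraries.

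The stomatal and wax lists had rises and no falls, and the root and root hair list had falls and no rises. Stomatal lineage and guard cell genes rose in 9 of 14 cases and fell in 0 (0 at limma's unadjusted p below 0.05), with a median of 0.89. TMM (AT1G80080), a receptor that spaces stomata, was at 21.7, 19.6 and 24.7 FPKM in csu5-1 and 10.7, 9.40 and 11.2 in csu5-3 (1.12 ± 0.11). EPF2, the peptide signal of early lineage cells, was at 5.42, 4.06 and 6.95 FPKM in csu5-1 and 0.65, 1.86 and 2.06 in csu5-3 (1.69 ± 0.29). KAT1, a potassium channel of guard cells, was at 10.7, 10.5 and 9.75 FPKM in csu5-1 and 4.82, 5.72 and 5.20 in csu5-3 (0.99 ± 0.10). The early lineage factor SPCH rose (0.81 ± 0.12), MUTE missed the threshold (0.86 ± 0.25, adjusted p = 0.012) and FAMA, which acts last, was level (0.03 ± 0.08). Apart from TMM, none of the 9 passed the test against a fold of 1.5 itself. At a minimum of 5 FPKM, 5 members of this list rose. Summed over FAMA, KAT1 and MYB60, guard cell markers were at 28.6 to 29.7 FPKM in csu5-1 and 19.5 to 21.8 in csu5-3. Wax genes rose in 4 of 9 cases tested (11 listed) and fell in 0 (2 were lower at limma's unadjusted p below 0.05), with a median of 0.27. CER3, KCS1, CER2 and CER1 rose with log2 folds of 0.61 to 0.69, all lost in the test against a fold of 1.5 itself. Of root and root hair genes, 0 of 14 tested (18 listed) rose (2 were higher at limma's unadjusted p below 0.05) and 5 fell, with a median of −0.17. The root-hair wall gene PRP3 was at 5.71, 7.21 and 7.29 FPKM in csu5-1 and 15.9, 18.1 and 15.8 in csu5-3 (−1.17 ± 0.11), the 1 fall kept in the test against a fold of 1.5 itself. Falls numbered 3 without csu5-1 replicate 2, without csu5-3 replicate 2 or at a minimum of 5 FPKM. Summed root markers were at 37.3 to 41.0 FPKM in csu5-1 and 49.1 to 53.5 in csu5-3. They include PRP3 and EXPA7, which are also among the falls of this list. EXPA7 averaged 5.8 FPKM in csu5-1 and 10.2 in csu5-3 (−0.70 ± 0.15). The sum is therefore no separate sign of a change in root tissue. In suberin and Casparian strip genes 1 of 12 tested (13 listed) rose and 1 fell, with a median of −0.30. These shares are near the 8.22% and 6.66% of all tested genes. Neither CASP1 nor FAR5 kept its call in every setting. CASP1 lost it without scaling, in the test against a fold of 1.5 itself and without csu5-1 replicate 2 or csu5-3 replicate 3. FAR5 lost it in that test, without a filter and without csu5-1 replicate 1, csu5-1 replicate 3 or csu5-3 replicate 2. Without scaling or without csu5-3 replicate 3, 3 members fell. The fatty acid reductase gene FAR1, given below among the largest rises, is not on this list. The share of each tissue in the seedlings and its part in these results was not tested.

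Starch genes moved both ways, with 4 rises and 8 falls among 19, beside 8.22% and 6.66% of all tested genes. The median was −0.13. GBSS1 (AT1G32900), which makes amylose, was at 42.8, 45.2 and 39.9 FPKM in csu5-1 and 6.41, 5.29 and 6.65 in csu5-3 (2.79 ± 0.09). BAM3 (AT4G17090), the chloroplast beta-amylase of night-time breakdown, was at 10.0, 10.6 and 9.39 FPKM in csu5-1 and 90.14, 72.0 and 84.4 in csu5-3 (−2.89 ± 0.08). Further breakdown genes fell with it, among them PHS2 (−1.04 ± 0.11), PWD (−0.97 ± 0.07) and DPE1 (−0.95 ± 0.08). The synthesis genes SS1 and APL3 rose by 0.69 ± 0.06 and 0.65 ± 0.15, and so did BAM9 (0.69 ± 0.08), while AMY3, DPE2 and BAM1 were not called. APL3 lost its call without scaling or without any 1 of 4 mutant libraries, and PHS2, SEX1, SEX4, ISA3, LDA, SS1 and BAM9 lost theirs in the test against a fold of 1.5 itself. Seed storage use showed 4 rises and 0 falls among 8 tested of 10 listed (0 were lower at limma's unadjusted p below 0.05), with a median of 0.41. ICL and MLS, the glyoxylate cycle enzymes that turn fat into sugar, were at 65.4 to 83.9 and 41.2 to 50.3 FPKM in csu5-1 and at 11 to 18.1 and 11.2 to 12.8 in csu5-3 (2.46 ± 0.19 and 1.98 ± 0.09). PCK1, the next step towards sugar, rose with 1.07 ± 0.06. In nitrogen assimilation 3 of 14 tested (16 listed) rose and 0 fell (4 were lower at limma's unadjusted p below 0.05), with a median of 0.22. The shares over all tested genes were 8.22% and 6.66%. NIA1, a nitrate reductase, was at 1030, 1029 and 984 FPKM in csu5-1 and 332, 310 and 351 in csu5-3 (1.70 ± 0.06), while CNX5 (AT5G55130), which is not on this list, was named for its large fall and helps make the molybdenum cofactor that this enzyme needs, stood at 2.23, 2.2 and 2.00 FPKM in csu5-1 and 21.0, 19.6 and 21.0 in csu5-3 (−2.92 ± 0.08). BAM3, PHS2, BAM9 and CNX5 overlap another gene.

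CC-type glutaredoxins, a plant family of small redox proteins, fell in 9 of 10 cases and rose in 0 (0 at limma's unadjusted p below 0.05), with a median of −2.18; 2 of the 10 were tested through csu5-3 alone. AT5G18600 was at 11.2, 8.75 and 14.0 FPKM in csu5-1 and 88.9, 79.9 and 88.0 in csu5-3 (−2.81 ± 0.12). AT4G15700, tested through csu5-3 alone, was at 0.58, 0.97 and 0.81 FPKM in csu5-1 and 11.3, 12 and 11.1 in csu5-3 (−3.17 ± 0.14). AT4G15690 was at 1.33, 1.35 and 1.68 FPKM in csu5-1 and 14.1, 12 and 14.9 in csu5-3 (−2.79 ± 0.16). Of these genes 5 lie side by side on chromosome 4, where AT4G15640 to AT4G15700 formed a run of 6 called genes that all fell, and their near-identical copies can share reads. AT1G06830 was the exception (0.53 ± 0.33, adjusted p = 0.21), and AT3G62950 (−1.23 ± 0.19) was lost in the test against a fold of 1.5 itself. All other runs of 4 neighbouring called genes rose, among them SAUR26 to SAUR29 and a run around BBX28.

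Salicylic acid and immune genes had 4 rises and 1 fall among 10 tested (18 listed), beside 8.22% and 6.66% of all tested genes, with a median of 0.41. ICS1, which makes salicylic acid, was at 16, 14.5 and 14.2 FPKM in csu5-1 and 6.0, 4.97 and 5.42 in csu5-3 (1.45 ± 0.12). WRKY40, CBP60G and WRKY18 rose with 0.98 to 1.2 and the transporter EDS5 fell (−0.67 ± 0.15), all of them lost in the test against a fold of 1.5 itself, EDS5 also without csu5-1 replicate 1, csu5-1 replicate 2 or csu5-3 replicate 2. At a minimum of 5 FPKM, 1 member rose and 0 fell. PR1 and PR2, late targets of the hormone, missed the filter: PR1 had 7.45 and PR2 5.87 FPKM in csu5-1 replicate 1 and both were under 1 FPKM in the other 5 mutant libraries. Jasmonate genes had 3 rises and 1 fall among 19 tested (22 listed), with a median of 0.13. The shares over all tested genes were 8.22% and 6.66%. Falls numbered 2 without scaling, under quantile normalization, without a filter and without csu5-1 replicate 2 or csu5-3 replicate 2, and rises 1 at a minimum of 5 FPKM or in the test against a fold of 1.5 itself. LOX2 (AT3G45140), a chloroplast lipoxygenase of jasmonate synthesis, was at 2.32, 0.78 and 0.43 FPKM in csu5-1, 14.2, 19.4 and 14.7 in csu5-3, and 4.81, 5.84 and 4.57 in Col. Col lay between the alleles for LOX2 (csu5-1 over csu5-3 −3.40 ± 0.30; csu5-3 over Col 1.56 ± 0.30, adjusted p = 0.016, not called). VSP2, a vegetative storage protein induced by jasmonate, went the other way, at 14.5, 14.1 and 13.8 FPKM in csu5-1 and 2.80, 3.75 and 3.12 in csu5-3 (2.05 ± 0.11). Genes of abscisic acid, drought and cold fell in 7 of 20 cases tested (24 listed; 35.0%, against 6.66% of all tested) and rose in 2 (10.0%, against 8.22%), with a median of −0.43. COR15B and COR15A, cold-regulated chloroplast proteins, fell (−1.31 ± 0.21 and −1.29 ± 0.20) and CBF2, a factor that induces them, rose (1.94 ± 0.18). COR15B was at 54.5, 62.1 and 55.1 FPKM in csu5-1 and 183, 192 and 96.8 in csu5-3, so that csu5-3 replicate 3 sat well below the other 2. Both COR15 genes, RD26, RD29B, ABI5, P5CS1 and CYP707A2 lost their call in the test against a fold of 1.5 itself.

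In the remaining lists few members moved. Over all tested genes, 8.22% rose and 6.66% fell. Among glucosinolate genes 1 of 13 tested (18 listed) fell and 0 rose (3 were higher at limma's unadjusted p below 0.05), with a list median of −0.28. The 1 that fell, CYP83A1, was at 0.58, 0.56 and 0.38 FPKM in csu5-1 and 3.34, 8.81 and 3.14 in csu5-3 (−2.29 ± 0.37). CYP83A1 was tested through csu5-3 alone, so that it is low in csu5-1 is no finding. MAM1 (−1.33 ± 0.39, adjusted p = 0.014) missed the threshold and was called in 4 settings. In the list 2 fell in 9 settings, among them without Col replicate 3, csu5-1 replicate 1, csu5-3 replicate 1 or csu5-3 replicate 3. Without a filter 3 members of the list fell, and with a minimum of 5 FPKM 0 did. Of 8 tested genes (11 listed) for heat shock proteins and hydrogen peroxide removal, HSP70 (AT3G12580) fell (−1.06 ± 0.10) and 0 rose (2 were higher at limma's unadjusted p below 0.05), with a median of −0.42. In this list 3 fell without scaling or without csu5-3 replicate 2, 2 fell under quantile normalization, without a filter and without csu5-1 replicate 3 or csu5-3 replicate 3, and 1 rose with a pseudocount of 0.1 or without csu5-1 replicate 2. Of 9 ER body genes, BGLU18 alone rose and 0 fell (2 were lower at limma's unadjusted p below 0.05), with a median of 0.11. In cell division 1 of 13 rose and 2 fell, with a median of 0.18: TSO2 and RNR1, subunits of ribonucleotide reductase, fell with −1.09 ± 0.09 and −0.62 ± 0.06, and the cyclin CYCA1;1 rose with 0.63 ± 0.12. RNR1 and CYCA1;1 lost their call in the test against a fold of 1.5 itself, CYCA1;1 also without scaling, with a pseudocount of 1 and without csu5-3 replicate 3.

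**Figure D4:**
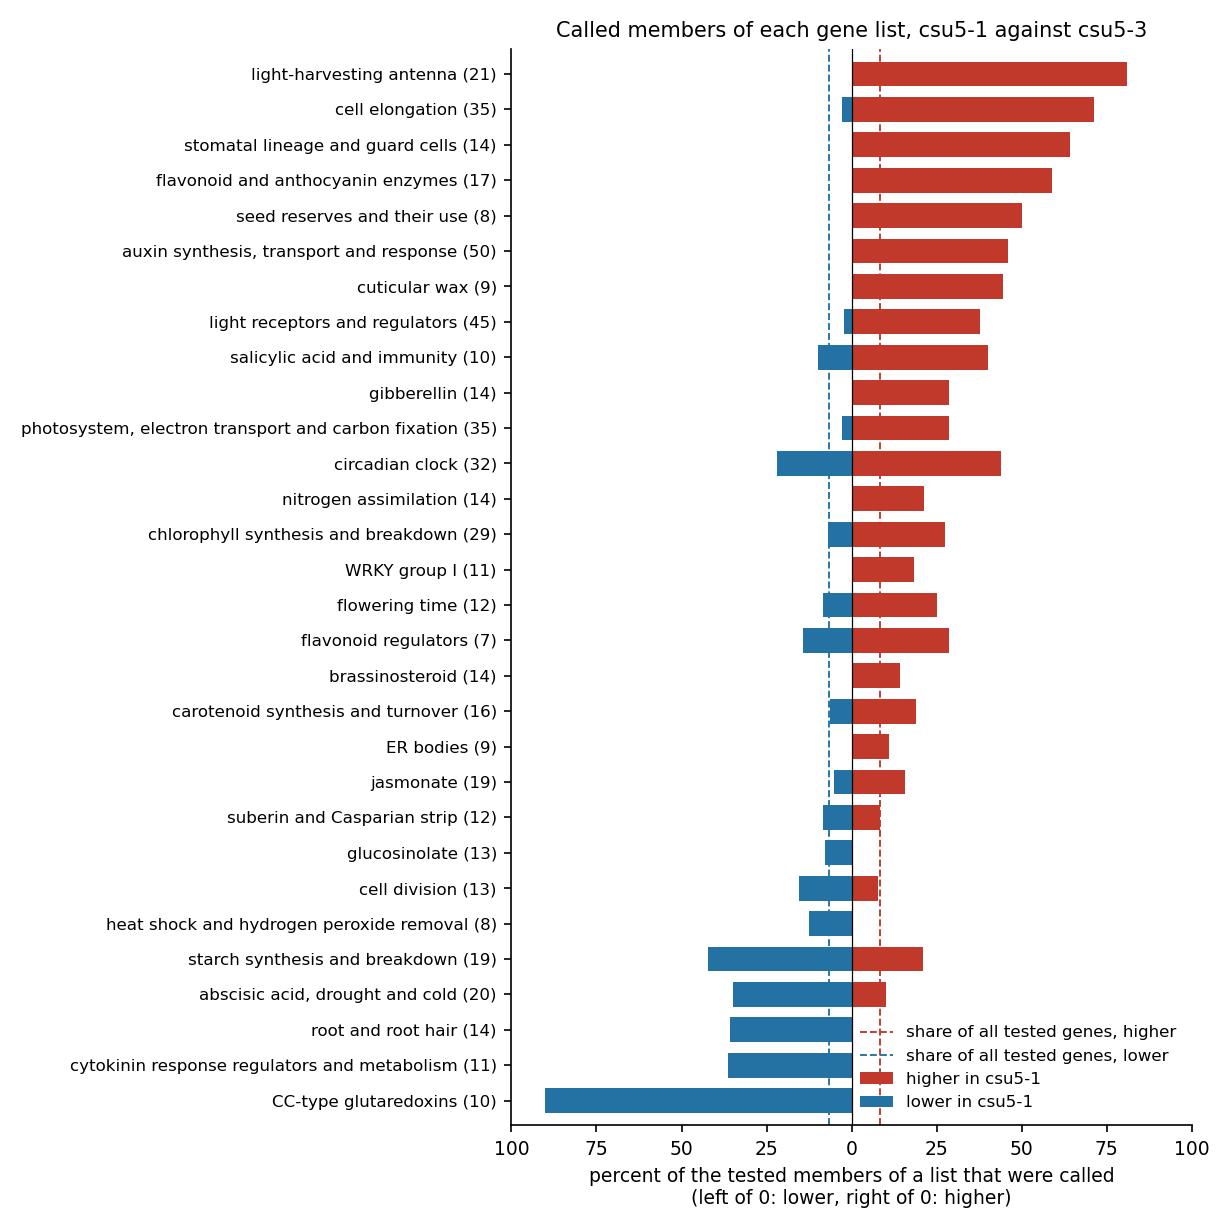
Percent of the tested members of each of the 30 gene lists called lower (left) or higher (right) in csu5-1 against csu5-3, with the number tested in brackets; dashed lines mark 6.66% lower and 8.22% higher among all tested genes. Antenna genes reach 81.0% higher and CC-type glutaredoxins 90.0% lower, while clock and starch genes extend to both sides.

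Some of the largest differences fell outside the lists. ALMT1 (AT1G08430), a malate transporter, was at 45.0, 49.5 and 39.2 FPKM in csu5-1 and 1.73, 2.23 and 2.17 in csu5-3 (4.22 ± 0.15). The fatty acid reductase gene FAR1 (AT5G22500), which makes fatty alcohols, was at 93.1, 78.5 and 68.6 FPKM in csu5-1 and 4.76, 5.53 and 4.81 in csu5-3 (3.93 ± 0.20), and it overlaps another gene. AT5G44440, annotated as a berberine-bridge type oxidase, AT2G47780, AT5G42530 and the thionin gene THI2.2 rose with 3.78 to 3.98. AT5G42530 varied within csu5-1, at 18.1, 6.98 and 8.68 FPKM against 0.48, 0.20 and 0.11 in csu5-3. AT5G42530 reached the filter through csu5-1 alone, so that it is low in csu5-3 is no finding. Among the falls, AT1G23130, annotated as a polyketide cyclase, averaged 2.68 ± 0.795 FPKM in csu5-1 and 44.7 ± 2.27 in csu5-3 (SD, n = 3 each) (−3.79 ± 0.18). CRL2 (AT2G33600) was at 0.41, 0.21 and 0.51 FPKM in csu5-1 and 12.8, 11.3 and 10.5 in csu5-3 (−3.74 ± 0.15). CRL2 was tested through csu5-3 alone, so that it is low in csu5-1 is no finding. AT5G01670 and AT5G35480 fell with −2.94 ± 0.11 and −2.61 ± 0.28. Near silence in 1 allele, defined as 0.1 FPKM or less in its 3 libraries and at least 2 in those of the other, was met by 3 genes. Such genes reach the filter through the other allele alone, so that they are low in 1 allele is no finding. DFR and AT2G32200 met it in csu5-3, where AT2G32200 was listed at 0 in all 3 libraries against 4.32, 4.14 and 3.73 FPKM in csu5-1. RK2 (AT1G65800), a receptor kinase, met it in csu5-1 at 0, 0.02 and 0.02 FPKM against 2.04, 2.13 and 2.15 in csu5-3, with Col between them at 0.95, 0.81 and 1.16; it overlaps another gene.

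A smaller set of genes departed from Col in csu5-3 as well. The 23 calls in each direction fell to 4 higher and 6 lower without Col replicate 1 and to 4 and 13 without csu5-3 replicate 2, and the higher calls to 9 without Col replicate 3 and to 11 without csu5-3 replicate 1. Besides WRKY32, where csu5-3 over Col was −1.2 ± 0.12 (adjusted p = 0.00065), 4 of the 5 largest such rises had Col between the alleles. LHCB1.1 was at 457, 386 and 413 FPKM in Col, above csu5-3 (−1.01 ± 0.12, adjusted p = 0.0015) and far below csu5-1. XTH25 was at 12, 11.9 and 12.7 FPKM in csu5-1, 1.73, 2.00 and 1.81 in csu5-3, and 3.83, 3.62 and 3.6 in Col. AT5G48490, annotated as a lipid-transfer protein, was at 349, 373 and 353 FPKM in csu5-1, 89.1, 80.3 and 92.7 in csu5-3, and 136, 144 and 143 in Col. These alleles stood on opposite sides of Col, with csu5-3 over Col at −0.84 ± 0.10 for XTH25 and −0.69 ± 0.06 for AT5G48490. SADHU3-2, a retroposon locus, gave the same order with 16.8 ± 2.41 FPKM in csu5-1, 2.97 ± 0.852 in csu5-3 and 8.97 ± 1.27 in Col. On the falling side CORI3 was at 1.31, 1.39 and 1.62 FPKM in csu5-1, 7.43, 7.69 and 5.85 in csu5-3, and 2.37, 3.44 and 2.94 in Col (csu5-3 over Col 1.13 ± 0.15, adjusted p = 0.0036). For COR15A, AT3G28220, GH9B8 and AT1G77960 the csu5-3 libraries were raised over Col (0.66 to 1.54), and csu5-1 was not called against Col. COR15A was at 19.1, 28.2 and 16.9 FPKM in csu5-1, 55.5, 73.3 and 40.01 in csu5-3, and 20.6, 19.3 and 15.7 in Col, so the csu5-3 libraries stood above both other genotypes.

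Further genes with this feature were picked after their values were seen. ASN1, an asparagine synthetase, resembled IAA2, at 42.6, 42.0 and 49.7 FPKM in csu5-1, 23.4, 31.2 and 28.4 in csu5-3, and 49.5, 50.2 and 43.6 in Col. In BGLU18 (AT1G52400), a beta-glucosidase, both alleles were above Col in steps, at 34.0, 32.7 and 30.3 FPKM in csu5-1, 8.66, 17.3 and 12.3 in csu5-3, and 3.03, 3.85 and 3.93 in Col. EXPA4 and EXPB3 were stepped likewise, with EXPB3 at 78.0 to 91.8 FPKM in csu5-1, 42.3 to 51.0 in csu5-3 and 24.4 to 30.2 in Col. LOX1 differed from Col in csu5-3 (0.87 ± 0.08, adjusted p = 0.00065) and was level between the alleles at 23.9 ± 2.08 FPKM in csu5-1 and 25.4 ± 0.679 in csu5-3. None of the genes that differed between csu5-3 and Col kept that call in the test against a fold of 1.5 itself. Of those named here, WRKY32, AT5G48490, IAA2, LOX1 and BGLU18 kept it without any 1 library, and the others lost it without at least 1. CHS and GH9B8 lost it in 9 settings each, AT1G77960 in 7, and COR15A, CORI3 and EXPA4 in 6.

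**Figure D5:**
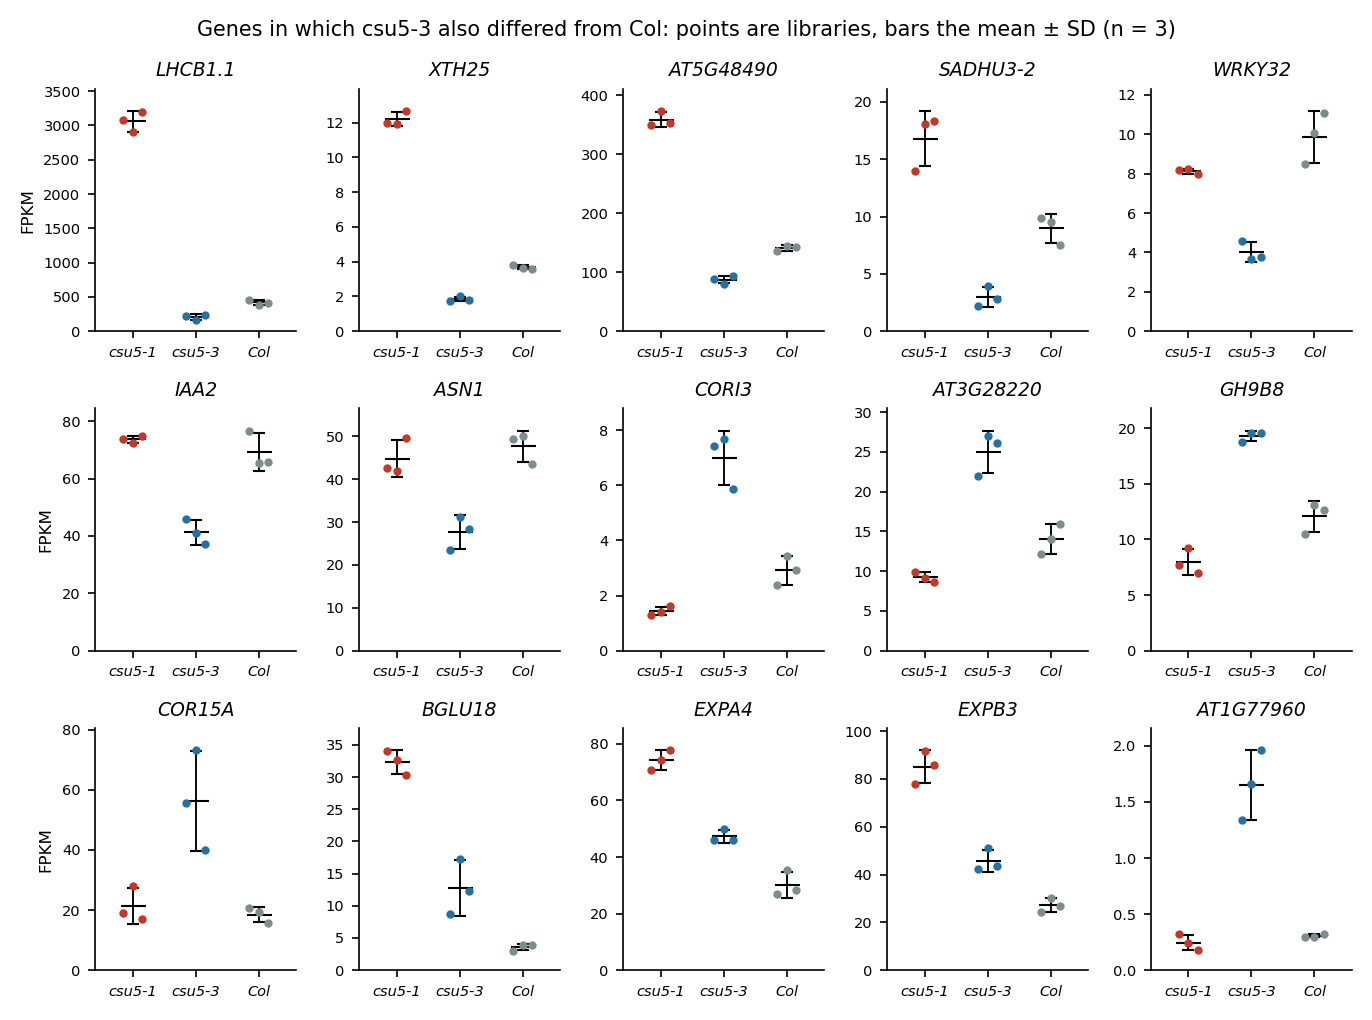
FPKM of 15 genes that were called between the alleles and between csu5-3 and Col, each panel from 0, with csu5-1, csu5-3 and Col from left to right; points are libraries and bars the mean ± SD of 3. In the first 4 panels Col lies between the alleles, for WRKY32 above both, and COR15A, AT3G28220, GH9B8 and AT1G77960 are highest in csu5-3.

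Promoter letters were counted in 18922 of the tested genes, from 250 bases before to 50 after the annotated start, on both strands. The G-box CACGTG, which HY5 and PIF proteins bind, was in 10.7% of the promoters of genes that rose, 8.46% of those that fell and 8.89% of all tested, and in 18.3% of the 131 that rose by more than 4-fold. The related hexamer CACATG was in 18.5% of those that rose, 12.4% of those that fell and 12.8% of all. The W-box (TTGACC or TTGACT) of WRKY proteins was in 30.9% of those that rose, 31.4% of those that fell and 32.3% of all. By more than 4-fold, it was in 30.5% of the 131 that rose and 42.4% (14) of the 33 that fell. The evening element AAAATATCT was in 2.43% of those that rose, 5.75% of those that fell and 2.99% of all. The telo-box AAACCCTA, common in ribosomal protein promoters, was in 1.98% of those that rose, 11.7% of those that fell and 5.52% of all. The I-box GATAAG and the CCA1-binding letters AAAAATCT differed less. The I-box was in 251 of 1564 promoters of genes that rose, 220 of 1253 of those that fell and 2833 of all 18922, and the CCA1-binding letters in 7.93%, 7.1% and 8.15%. Among the 131 that rose and 33 that fell by more than 4-fold, CACATG was in 19.8% and 15.2%. There the evening element was in 4.58% and 12.1%, and the telo-box in 3.05% and 6.06%. The I-box was in 19.1% and 12.1%, the CCA1-binding letters in 6.87% and 0%, and the G-box in 9.09% of the 33. These sets are small and no test was run. A match is a description of the letters in that window and no evidence of binding.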

How the data were processed

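Polyadenylated RNA of whole seedlings was sequenced on an Illumina platform, per the labels' protocols. The submitters' processing notes name Trimmomatic, HISAT2 2.05, HTSeq and the TAIR10 build, and per the series' design text these served for trimming, alignment and read counts per gene. The authors deposited 1 value per gene and library, which the values show to be FPKM (sums of 691388 to 718744 per library); the sources used here do not say how the FPKM was made or whether strand was used. Depth was estimated from the steps between low FPKM of genes with 60 to 450 bases of exon, of which 74.3% to 83.9% were whole within 0.1 read (11.2% to 14.0% at other depths).

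Libraries were scaled by a trimmed mean of log2 ratios (0.3 trimmed at each end; factors 0.9622 to 1.028) and fitted as log2(FPKM + 0.5) with limma 3.58.1 (R 4.3.3, trend), all 9 libraries in 1 model with a mean per genotype. A fold on this scale understates the change of low genes. Genes at 1 FPKM or more in at least 3 of the 6 mutant libraries were tested, and calls needed a fold above 1.5 at a p, adjusted after Benjamini and Hochberg over all tested genes, below 0.01, the thresholds the design text states. Tables and plots were made with Python 3.11.15, pandas 2.3.3, numpy 2.4.6 and matplotlib 3.10.9, and the fit was tested on simulated data. Gene names, overlaps and promoters came from the RefSeq annotation of TAIR10.1, which held 31912 of the 32678 IDs.

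Named were the 12 largest rises and falls (mean of at least 2 FPKM, groups not overlapping), the list members (in full, mainly those with the smallest p), up to 5 genes per direction also called in csu5-3 against Col, genes near silent in 1 allele, and WRKY32, COP1, HY5, PIF4 and CHS. The members and the 30 lists (597 genes) were chosen with earlier results of these data known. Alternatives were other scaling, pseudocounts, filters, sample sets, a replicate block, limma's treat and leaving out each library. The values of 1 member of the auxin list are not reported here.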

Additional observations from a re-analysis of the deposited data

How the results depend on the processing

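Of the 252 called genes under the naming rule, all kept their direction in every setting that tested them except LHCA2 (−0.13) and LHCB4.1 (−0.076) under quantile normalization, whose cause was not tested, and 212 kept their call in each of the 18 settings other than treat that tested them (the minimum of 5 FPKM tested 206). Limma's treat, which tests against a fold of 1.5 and so calls fewer genes by construction, left 493 higher and 269 lower in csu5-1 against csu5-3, 503 and 309 in csu5-1 against Col, and 0 and 0 in csu5-3 against Col, where 4217 genes had limma's unadjusted p below 0.05 without that fold; it kept 130 of the 252. Without scaling 1303 rose and 1680 fell between the alleles. Leaving out 1 library gave 1470 to 1566 higher and 1140 to 1262 lower between the alleles, 1503 to 1607 and 1409 to 1533 in csu5-1 against Col, and 4 to 24 and 6 to 24 in csu5-3 against Col. Without a filter csu5-3 against Col had 3 and 6 calls, and the cause was not tested.

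Replicate numbers are shared by the genotypes, and samples with the same number correlated at 0.0408, 0.0764 and 0.0147 between the alleles. These values are small but all positive. The main fit did not take the numbers as pairs, and whether they mark a shared batch was not tested. Libraries of csu5-3 and Col were not correlated in this way. With the replicate number as a block, 1584 genes rose and 1300 fell between the alleles, 1622 and 1552 in csu5-1 against Col, and 34 and 42 in csu5-3 against Col, and all 252 named calls between the alleles were kept. Between csu5-1 and Col the same numbers gave 0.0664, 0.105 and 0.0793, and every csu5-1 library correlated best with its own number there. Against csu5-3 the exception was csu5-1 replicate 3, at 0.0282 with csu5-3 replicate 1. Each group has 3 libraries, which limits the precision of the folds near the threshold.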

Other observations

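Several abundant genes outside the lists fell, and they were picked after their values were seen. GRP3S (AT2G05380), a glycine-rich protein gene, averaged 1816 FPKM in csu5-1 and 5496 in csu5-3 (−1.52 ± 0.10, limma adjusted p = 8.4e-08). GRP-3 (AT2G05520), of the same kind, at 675 FPKM in csu5-1 and 1673 in csu5-3, and its near neighbour AT2G05540, at 192 FPKM in csu5-1 and 529 in csu5-3, fell with −1.23 ± 0.10 and −1.39 ± 0.11. OEP6 (AT3G63160), of the chloroplast outer envelope, averaged 207 FPKM in csu5-1 and 908 in csu5-3 (−2.04 ± 0.09). CP12-2 (AT3G62410), a regulator of the Calvin cycle, averaged 57.4 FPKM in csu5-1 and 196 in csu5-3 (−1.68 ± 0.06), and CP29 (AT3G53460), a chloroplast RNA-binding protein, 197 FPKM in csu5-1 and 616 in csu5-3 (−1.56 ± 0.05). AT3G05730 averaged 44.1 FPKM in csu5-1 and 265 in csu5-3 (−2.49 ± 0.15).

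Nuclear ribosomal protein genes, taken by their annotated product after the telo-box shares were seen, stood mostly a little below 0. Of 311 tested, 4 rose (8.22% of all tested genes did) and 31 fell (6.66% of all did), 272 had a log2 fold below 0, and the median was −0.28 (quartiles −0.43 and −0.13), against −0.01 over all tested genes. That median was −0.36 without scaling and −0.30 under quantile normalization.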
